A study of Mus musculus with 8 samples.

Results

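DEAD and DEAH box RNA helicases were examined in the retinal transcriptome of Rbfox2-/- and control mice. The members were the genes of the deposited table whose symbol is Ddx or Dhx followed by a number and at most 1 letter. After 5 such symbols were set aside as not analysed here, 49 of the 17500 genes remained, 34 with a Ddx and 15 with a Dhx symbol. All 49 passed the filter on low counts, as did 16797 genes in all.

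Poly(A)-selected RNA of the whole retina was sequenced separately for each of 8 mice. The Rbfox2-/- group, labelled Rbfox2 KD, consisted of M893, M901, M902 and M909, and M833, M894, M896 and M898 formed the control group. Values per mouse are given in these orders throughout. All mice were 6 months old and on the C57BL/6J background. The Rbfox2-/- mice carried Rbfox2 fl/fl and a tamoxifen-inducible Cre that is active in many cell types, and they had received tamoxifen by gavage as adults, 4 months before the RNA was taken. The controls were Rbfox2 fl/+ mice of matched age, so that they carried 1 floxed allele themselves. The labels give tamoxifen for every mouse, controls included, whereas the methods describe it for mice with Cre. The methods also name corn oil as a vehicle, and do not say whether the controls carried Cre or which of these they received. The RNA is that of the whole tissue, in which fewer cells of a type and less RNA per cell cannot be told apart. The question addressed here is whether the helicase transcripts differ in level when Rbfox2, an RNA-binding protein that regulates splicing, is reduced.

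RNA helicases of these families use ATP to open short RNA duplexes or to strip proteins from RNA. DEAD box proteins mostly act locally, on the duplex they bind, whereas DEAH box proteins move along the strand, often under the control of partners that carry a glycine-rich G-patch. Splicing, ribosome assembly, mRNA export, translation and mRNA decay all depend on members, and most are expressed in nearly every cell. The families are named after a motif of the ATP-binding core, Asp-Glu-Ala-Asp in DEAD and Asp-Glu-Ala-His in DEAH box proteins.

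The coding stretch behind this name is shown for the members on which the results below turn. Members were chosen by symbol and not by this stretch. The 30-base windows were read from GENCODE M21 transcripts on GRCm38 (the assembly that mm10 names), are written 5′ to 3′ on the strand of the gene, and lie within 1 exon. The capitals mark the 4 codons of the motif. Ddx17 (DEAD) and Dhx8 (DEAH) have the codons of the family name, whereas Ddx39b, Ddx50 and Ddx21 have another codon in the place of Ala.
Ddx17, chr15:79538866-79538895, minus strand: cttgtgttgGATGAGGCTGACcggatgctt
Dhx8, chr11:101752131-101752160, plus strand: attatgttgGATGAAGCACACgagaggacc
Dhx16, chr17:35885499-35885528, plus strand: gtgatggtgGATGAAGCTCACgagcggacc
Ddx39b, chr17:35247081-35247110, plus strand: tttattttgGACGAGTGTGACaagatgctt
Ddx50, chr10:62640502-62640531, minus strand: gttgtgcttGATGAAGTAGATcaaatgtta
Ddx21, chr10:62591872-62591901, minus strand: gttgtcctgGATGAAGTCGACcagatgttg
Ddx19a, chr8:110979077-110979106, minus strand: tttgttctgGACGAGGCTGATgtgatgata
Ddx19b, chr8:111011326-111011355, minus strand: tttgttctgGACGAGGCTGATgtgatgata

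Over the longest coding sequence of each gene, codons for DEAD stood in frame in 27 of the 49 members (55.1%) and codons for DEAH in 9 (18.4%). Matches at any position were taken, so that a match need not be the motif of the ATP-binding core. Among all 15986 genes with a complete coding transcript the shares were 0.945% and 0.419%. DEAD was found in 26 of 34 Ddx genes and DEAH in 8 of 15 Dhx genes. Ddx11, which acts in sister chromatid cohesion as a DNA helicase, has DEAH despite its symbol. The DEAD codons of Dhx29, a factor in translation initiation, lie at codon 1118, the highest position of any match in a member. The remaining 13 members had a codon for another residue in the place of Ala. Ddx26b, listed as Ints6l in GENCODE and known as a relative of a subunit of the Integrator complex, is a member by symbol and has DEAD codons at codon 596. The windows of Ddx19a and Ddx19b above are letter for letter the same. These genes lie 5387 bases apart on chromosome 8, their coding sequences were 93.2% identical over 1434 aligned bases, and their transcripts shared an unbroken run of 275 bases, longer than a read. Since only uniquely mapped reads were counted, their counts are uncertain. Ddx21 and Ddx50, 13613 bases apart on chromosome 10, were 67.8% identical over 2096 aligned bases with a longest shared run of 23 bases, and Ddx39 and Ddx39b were 81.2% identical with a run of 26 bases.

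Rbfox proteins bind TGCATG in RNA, and the 3′ untranslated regions of the members were searched for these letters on the transcript's own strand. They held 25 such sites in 15 of the 49 members (30.6%), against 31.3% of the 15986 genes. The sites contain the shorter core GCATG, which was not counted on its own. Members with a site had longer 3′ untranslated regions (median 2276 bases) than those without (419 bases), as did all genes (2067.5 against 575.5 bases). Sites are shown for members named below, with the motif in capitals.
Ddx1, chr12:13218528-13218557, minus strand: tgtaggtagaaaTGCATGcttacgtgcata
Dhx8, chr11:101767191-101767220, plus strand: atgagtaactgaTGCATGgcagacccacaa
Dhx16, chr17:35892619-35892648, plus strand: tttggaatgaagTGCATGggaactctggaa
Ddx17, chr15:79529991-79530020, minus strand: cgcaaatgaaacTGCATGgcaggagtgact
Ddx25, chr9:35541031-35541060, minus strand: cacacctgcacaTGCATGtactggcaggca

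Each mouse contributed from 160630226 to 211283591 counted fragments. Levels are given as CPM (counts scaled to the normalized library size) between mice and as FPKM, which also divides by gene length, between genes. Rbfox2 had between 144 and 157 CPM in control and between 53.6 and 59.4 CPM in Rbfox2-/- retinas, so that 37.7% of its counted level remained in whole retina and the groups did not overlap. The counts cover the whole gene, whereas only some exons are floxed, so that transcripts without these exons may be counted too. M901 and M902 stood apart from the other libraries on the first principal component, which held 40.5% of the variance, and M909 stood apart on the second, with 19.2%. Xist, the RNA of the inactive X chromosome, was at 1439.7 CPM in M901 and 1739 CPM in M902 but between 1.71 and 2.22 CPM in the other 6 mice, controls included. By this RNA M901 and M902 would be female and the other 6 male, so that sex is partly confounded with genotype. The helicase results are therefore also given without M901 and M902. The retinal label was met by the rod markers, of which 5 of 5 summed to between 57070 and 64621 CPM. The lens markers, 5 of 5, summed to at most 2.45 CPM. Those of the pigment epithelium and ciliary body, 9 of 9, were not absent, at 108.5 to 268 CPM in control and 79.3 to 218 CPM in Rbfox2-/- retinas. The summed level of 4 of 4 cone markers was 733 to 739.8 CPM in control and 782 to 899 CPM in Rbfox2-/- retinas, that of 3 of 3 horizontal cell markers 89.0 to 92.7 against 71.6 to 74.96 CPM, and that of 3 of 3 Muller glia markers 3887 to 4228 against 3620 to 3805 CPM. Whether these differences take part in the helicase values was not tested. The cone, horizontal cell and Muller glia lists are given because their groups did not overlap. In the other lists examined, among them bipolar, amacrine, ganglion, vessel and microglia markers, the groups overlapped.

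The helicases were broadly expressed. Mean control FPKM ran from 0.141 for Ddx43 to 206 for Ddx17, with a median of 12.9 over the 49 members and 6.28 over all genes of the table. In 29 members the mean was at least 10 FPKM, and in 3 members it was under 1 FPKM. The highest was Ddx17, a cofactor of splicing and microRNA processing, at 209.9, 215, 210.3 and 189 FPKM in the controls and 218, 199, 236 and 184 FPKM in the Rbfox2-/- mice. Ddx39b, a spliceosome component that also loads the export machinery onto mRNA, followed at 103 ± 3.59 FPKM (SD, n = 4 control mice). Ddx1, part of the tRNA ligase complex, had 73.7 ± 1.38 FPKM, and Ddx6, the helicase of processing bodies that represses translation and promotes decapping, had 65.7 ± 3.20 FPKM. Ddx23, a component of the U5 particle of the spliceosome, had 52.7 ± 1.01 FPKM. These 5 genes together made up 44.8% of the summed FPKM of the family.

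The order of these 5 was clear in the controls, since each had a control range that did not overlap that of the next. Further down, levels lay close, and 31 of the 48 neighbouring pairs in the order overlapped in their control ranges. The order rests on the gene length that the authors used. With CPM per kilobase of the longest coding transcript in its place, 4 of the 5 leading genes were the same, with Dhx9 in the place of Ddx1, and Ddx25 went from rank 19 to rank 44.

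**Figure D1:**
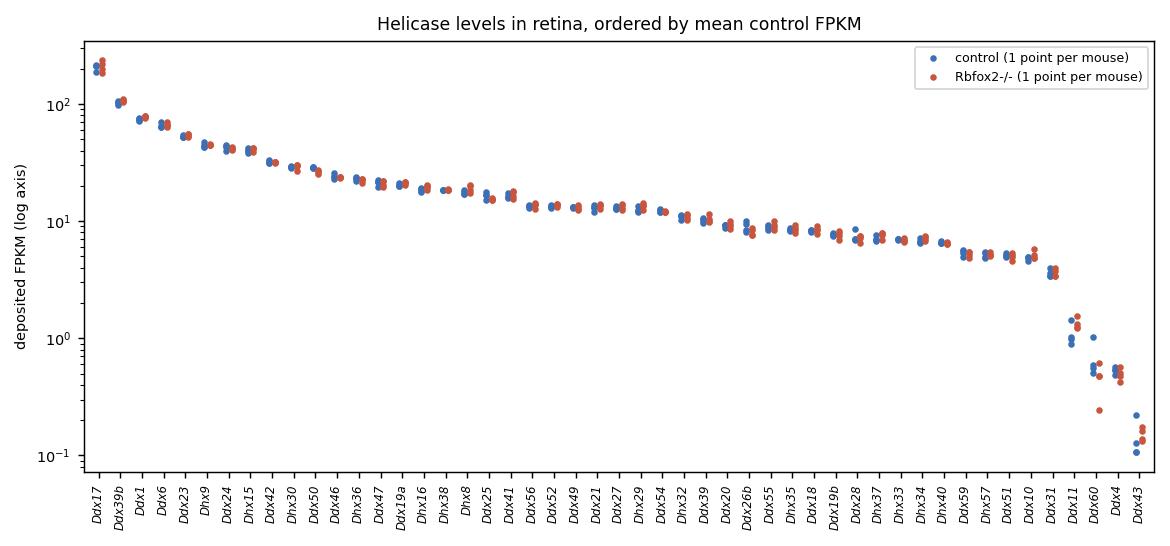
Deposited FPKM of the 49 helicases on a log axis, ordered by mean control FPKM, with 1 point per mouse (blue, control; red, Rbfox2-/-). Levels ran from 206 FPKM for Ddx17 to 0.141 FPKM for Ddx43, and at this scale the points of both groups lay on top of each other for most members.

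The 3 least expressed members are known from other settings than the adult retina. Ddx43 and Ddx4 are helicases of germ cells and tumours, and Ddx60 is induced by interferon. Ddx43 had between 0.231 and 0.486 CPM in the 8 mice, from 41 to 86 counts, and Ddx4 had between 1.15 and 1.61 CPM. A further gene known for its role in the testis, Ddx25, stood at 16.6 ± 0.956 FPKM (SD, n = 4) in control retinas, above the median of the family by this unit but at rank 44 of 49 by CPM per kilobase.

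Summed by role, the 6 members of mRNA decay, translation and microRNA processing held 32.02% of the family's control FPKM, the 10 spliceosomal members 29.6% and the 16 members of ribosome biogenesis 19.3%. Ddx17 alone gave 206 of the 358 FPKM of the first of these roles. It is also a cofactor of splicing, so that the order of the roles rests on where this gene was placed. The spliceosomal members ranged from 8.44 to 103 FPKM (median 21.4), and the ribosome biogenesis members from 3.58 to 43.0 FPKM (median 12.6). Each of the other roles held at most 7.41%.

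No helicase differed between Rbfox2-/- and control retinas by the edgeR quasi-likelihood test at an adjusted p (Benjamini-Hochberg over 16797 genes) under 0.05: 0 of 49 members were called, beside 11 genes in all (0.0655%). The lowest adjusted p of a member was 0.244. At an unadjusted p under 0.05, 2 members were higher in Rbfox2-/- retinas (Ddx1 and Ddx39b) and 1 was lower (Ddx50), where 6.42% of all genes were higher and 6.87% lower. These 3 of 49 lie below the 13.3% of all genes in either direction. DESeq2, edgeR's likelihood ratio test and limma-voom also called 0 members, beside 2.74%, 0.976% and 0.0655% of all genes. At an unadjusted p under 0.05, DESeq2 had 4 members higher (6.79% of all genes) and 1 lower (7.5%), adding Dhx8 and Ddx11 to the higher ones. The likelihood ratio test had 0 higher (4.48%) and 1 lower (5.55%), and limma-voom 1 higher (6.08%) and 1 lower (6.72%). The lower member was Ddx50 in all 3 tools.

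In RNA of the whole retina, the data bound the size of most differences closely. The paper found Rbfox2 in ganglion, amacrine and horizontal cells only, and these bounds do not apply to such cells taken alone. The 95% interval of the fold difference lay within 1.1-fold in either direction for 14 members, within 1.2-fold for 44 and within 1.5-fold for 46. It reached beyond 1.2-fold for Ddx26b, Ddx11, Ddx60, Ddx4 and Ddx43 and beyond 2-fold for Ddx60. The coefficient of variation between mice had a median of 4.55% in control and 5.33% in Rbfox2-/- retinas over the members, against 6.51% and 6.65% over all genes tested.

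**Figure D2:**
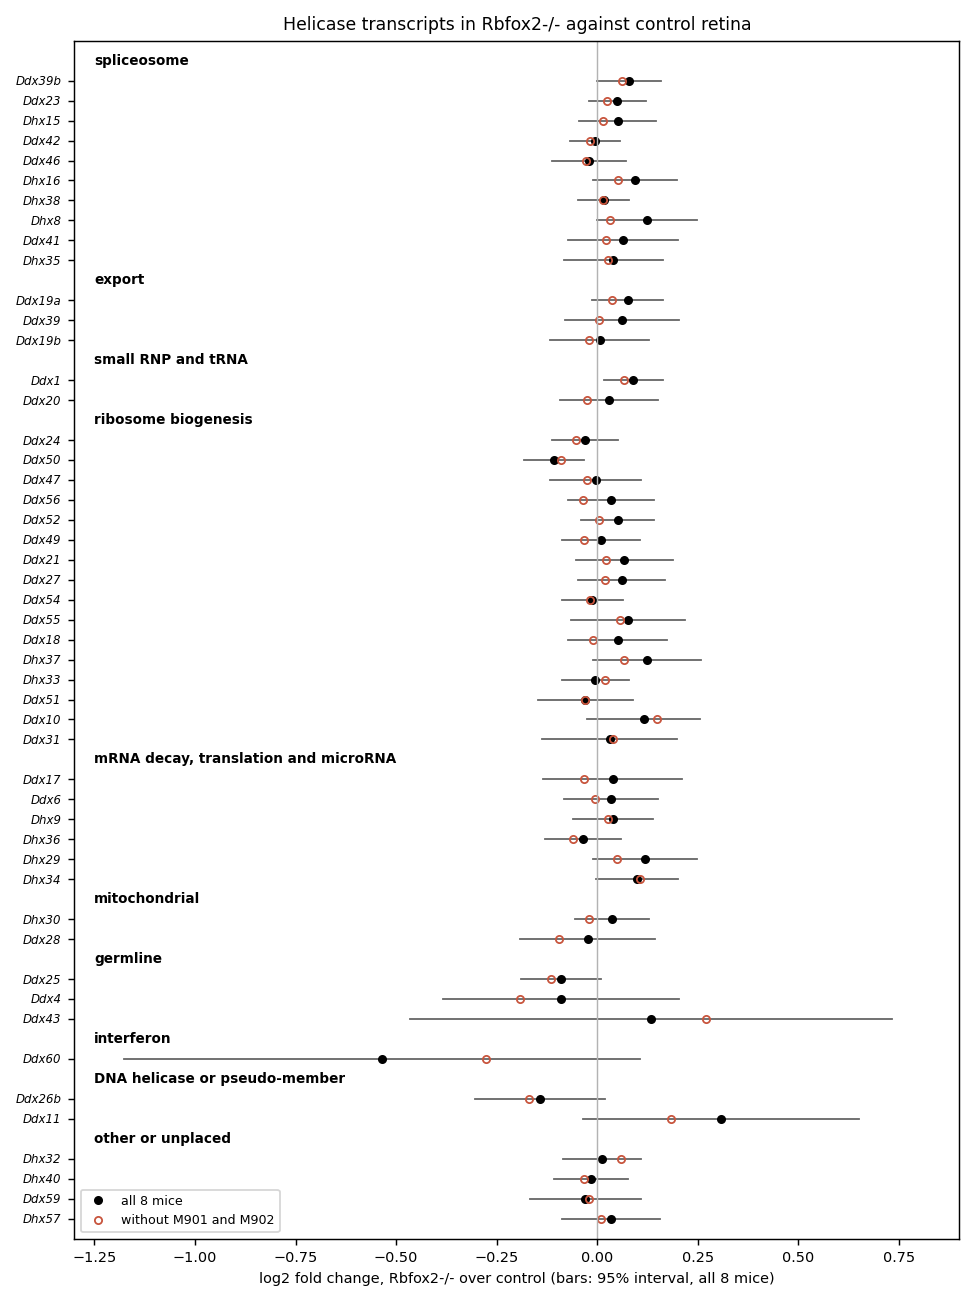
Log2 fold change of each member in Rbfox2-/- over control retina by role, with the 95% interval over all 8 mice (black) and the value without M901 and M902 (red, open). Values for 44 members are bounded within 1.2-fold in RNA of the whole retina by the fit over all 8 mice, and the widest interval is that of Ddx60.

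The log2 fold change was above 0 in 33 of 49 members (67.3%), where it was above 0 in 50.7% of all genes, and its median was 0.034 over the members and 0.0016 over all genes. This excess was smaller without M901 and M902, when 26 of 49 members (53.1%) were above 0 beside 48% of all genes, and the medians were 0.0050 and -0.0043. In that fit edgeR called 0 members (0.00585% of all genes), and 0 had an unadjusted p under 0.05 (3.55% of all genes higher, 2.46% lower). With 1 surrogate variable in the model, 23 of 49 were above 0 (49.6% of all genes) and the median was -0.0030, with 0 members called (0.0298%) and 0 at an unadjusted p under 0.05 (3.91% higher, 2.65% lower).

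The individual mice show how the members shared their ups and downs. Relative to the control mean, the median member stood at 0.040, -0.016, -0.0032 and -0.025 (log2) in the controls and at 0.028, 0.022, 0.085 and -0.012 in the Rbfox2-/- mice. Of the 49 members, 40 lay above the control mean in the control M833 and 40 in the Rbfox2-/- mouse M902, whereas 15 did so in M898 and 23 in M909. The summed level of 5 of 5 ganglion cell markers was lowest in M833, at 435 CPM, where the other controls had 701 to 734 CPM, and next lowest in M909, at 568 CPM, where the other Rbfox2-/- mice had 666 to 753 CPM. Whether this takes part in the values of these mice was not tested. The groups overlapped, since the second highest median belonged to a control. The summed CPM of the family was 4051, 3873, 3900 and 3757 in the controls and 3963, 3989, 4169 and 3824 in the Rbfox2-/- mice.

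**Figure D3:**
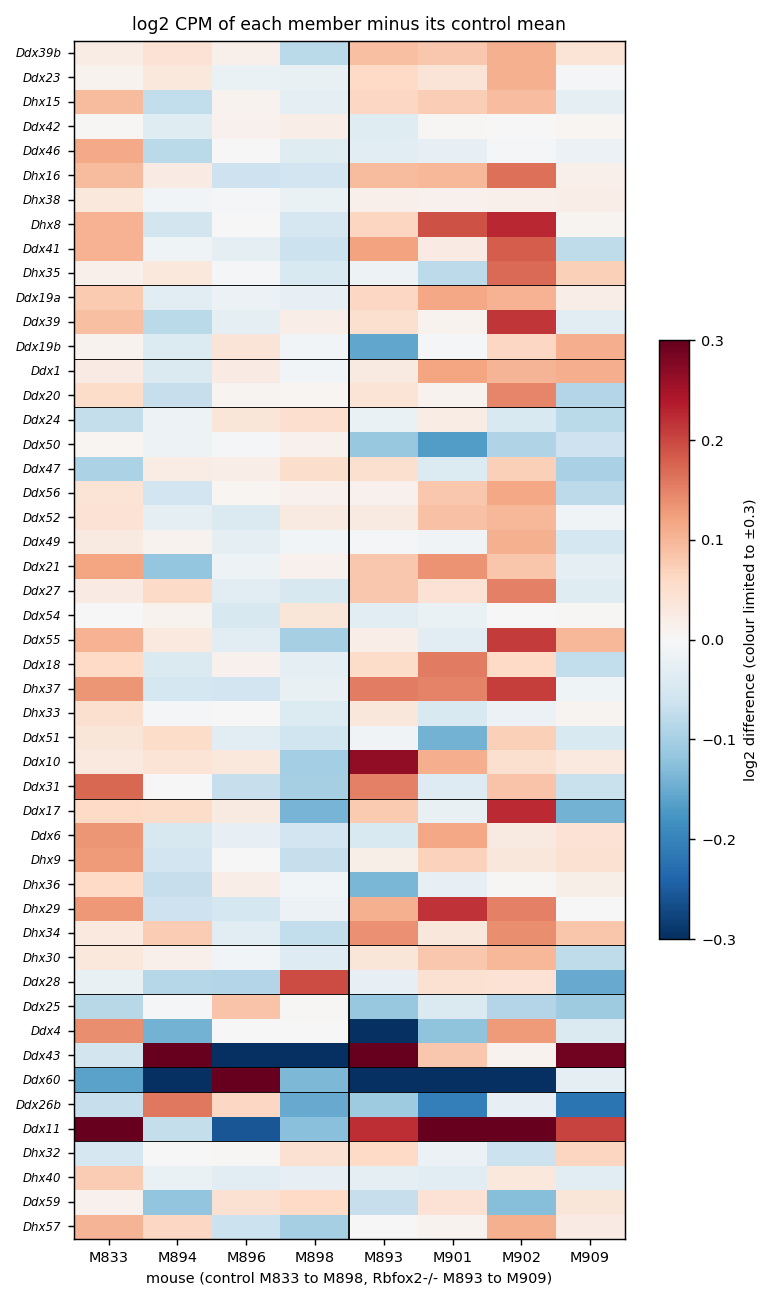
Log2 CPM of each member in each mouse minus its mean over the 4 controls, with members grouped by role (thin lines) in the order of the plot of fold changes. Red stands for higher and blue for lower values, and the columns of the control M833 and the Rbfox2-/- mouse M902 are both mostly red, with 40 of 49 members above the control mean in each.

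Single mice also set how many members had an unadjusted p under 0.05. Without the control M833 there were 8 higher and 2 lower (8.1% and 9.46% of all genes), and without the Rbfox2-/- mouse M909 there were 8 higher and 2 lower as well (8.56% and 9.2%). Both sets of 8 held Ddx1, Ddx19a, Dhx8, Dhx16, Dhx29 and Dhx37. Without M902 there were 0 higher and 2 lower (4.87% and 4.63%), and without M898 1 higher and 2 lower (4.32% and 4.51%). There were 1 higher and 1 lower both without M896 (3.65% and 5.2%) and without M901 (4.7% and 4.54%). None of the 49 members reached an adjusted p under 0.05 by edgeR when any 1 mouse was left out, also not without M833 or M909, when 0.207% and 0.0297% of all genes did.

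Of the 16 members that act in ribosome biogenesis, 10 had a log2 fold change above 0, where 50.7% of all genes did, and the median was 0.032. Ddx50, a nucleolar helicase closely related to Ddx21, was the member with the lowest p. It had 71.8, 70.7, 71.3 and 72.2 CPM in the controls and 66.1, 63.6, 67.2 and 68.5 CPM in the Rbfox2-/- mice, so that every Rbfox2-/- mouse lay below every control. Its mean was 71.5 ± 0.641 CPM against 66.4 ± 2.06 CPM (SD, n = 4 each), a log2 fold change of -0.11 (SE 0.033). That is a difference of -7.18%, with a 95% interval from -11.8% to -2.33%. The unadjusted p was 0.0086 by edgeR's quasi-likelihood test and the adjusted p 0.244, which put it at rank 589 of all genes by p. Leaving out any 1 of the 8 mice kept Ddx50 lower at an unadjusted p under 0.05, whereas without both M901 and M902 the log2 fold change was -0.090 with an unadjusted p of 0.0703. Over the 17 alternatives its adjusted p by edgeR, DESeq2 or limma ran from 0.0849 (DESeq2) to 0.870.

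Ddx21, the neighbour of Ddx50, was looked at after these values were seen. It had 66.6, 56.6, 60.8 and 61.9 CPM in the controls and 64.9, 67.4, 65.1 and 60.2 CPM in the Rbfox2-/- mice, with a log2 fold change of 0.067 (SE 0.054, adjusted p = 0.622 by edgeR), or 0.022 without M901 and M902. The ratio of Ddx50 to Ddx21 CPM was 1.08, 1.249, 1.17 and 1.17 in the controls and 1.02, 0.944, 1.03 and 1.14 in the Rbfox2-/- mice. The ratio of M909 lay above that of the control M833, so that the groups overlapped by 1 mouse on each side. This comparison is a description without a test.

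**Figure D4:**
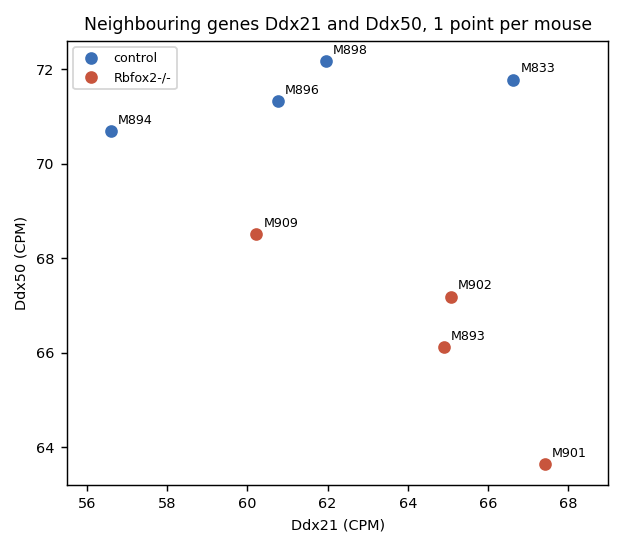
Ddx50 against Ddx21 in CPM, 1 point per mouse, with axes that do not start at 0. The 4 control mice lie between 70.7 and 72.2 CPM of Ddx50 and the 4 Rbfox2-/- mice between 63.6 and 68.5 CPM, whereas Ddx21 overlaps between the groups.

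Dhx37, which acts in the assembly of the small ribosomal subunit, had 31.8, 28.0, 27.9 and 28.6 CPM in the controls and 32.3, 32.2, 33.5 and 28.7 CPM in the Rbfox2-/- mice. In 3 of 4 Rbfox2-/- mice it lay above every control, and the log2 fold change was 0.12 (SE 0.060, adjusted p = 0.408 by edgeR), or 0.067 without M901 and M902. The other 14 members of this role had log2 fold changes between -0.031 (Ddx24) and 0.12 (Ddx10), none with an adjusted p under 0.45 by edgeR.

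Among the 10 spliceosomal helicases, 8 had a log2 fold change above 0, where 50.7% of all genes did, with a median of 0.050. Ddx39b had 181, 183, 179 and 168 CPM in the controls and 189, 188, 191 and 183 CPM in the Rbfox2-/- mice. The Rbfox2-/- value of M909 lay just below the highest control, and the other 3 lay above every control. The log2 fold change was 0.079 (SE 0.035), the unadjusted p 0.0491 and the adjusted p 0.374 by edgeR, and without M901 and M902 it was 0.062. Dhx8, which releases the spliced mRNA from the spliceosome, had 81.4, 72.9, 75.8 and 73.1 CPM against 79.1, 86.4, 88.6 and 76.1 CPM. Its high values were those of M901 and M902, and the log2 fold change of 0.12 (SE 0.056, adjusted p = 0.381 by edgeR) was 0.032 without them. Dhx16, which remodels the spliceosome before the first catalytic step, had 66.6, 63.4, 59.8 and 59.9 CPM against 66.6, 66.8, 69.9 and 63.0 CPM, with a log2 fold change of 0.093 (SE 0.047, adjusted p = 0.424), or 0.051 without these mice. Ddx23 had 149, 151, 145 and 145 CPM against 154, 151, 159 and 147 CPM, a log2 fold change of 0.050 (SE 0.032, adjusted p = 0.536), or 0.024 without them. In the latter 3 genes at least 1 Rbfox2-/- mouse lay within the range of the controls.

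**Figure D5:**
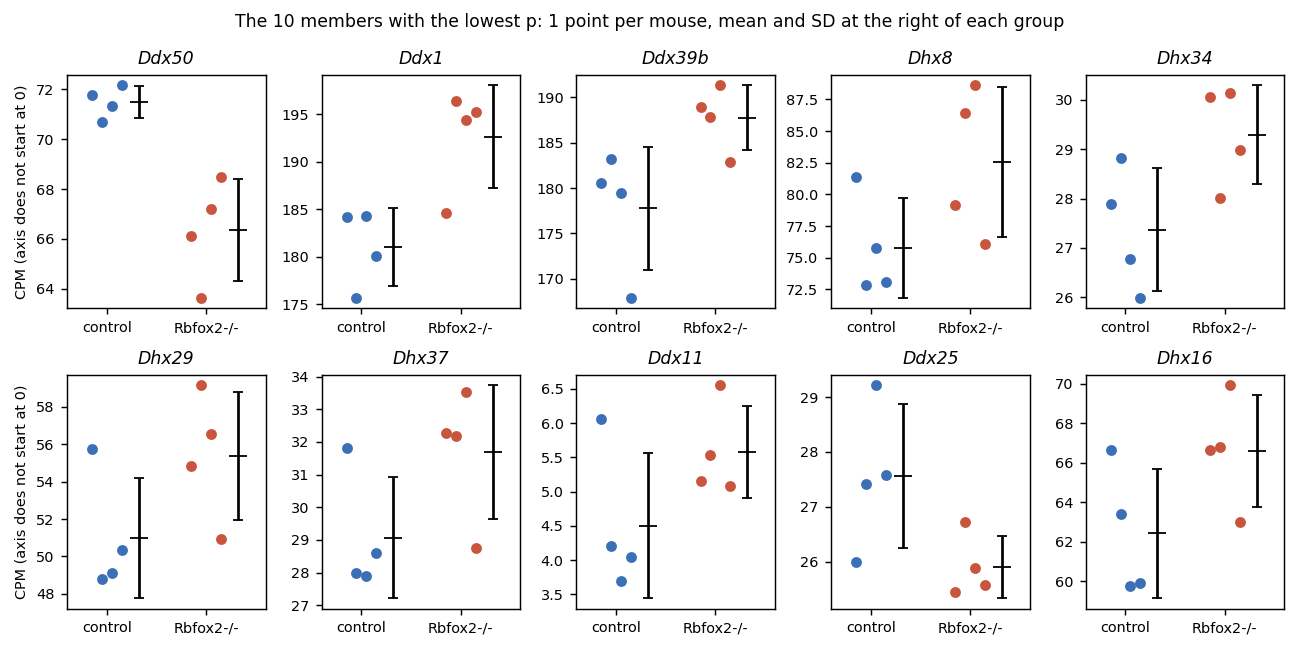
CPM of the 10 members with the lowest p in the 4 control (blue) and 4 Rbfox2-/- mice (red), with the mean and SD beside each group and axes that do not start at 0. Ddx50 (63.6 to 68.5 against 70.7 to 72.2 CPM) and Ddx1 are the 2 members without overlap between the groups, and in the other 8 the groups overlap.

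The members of mRNA decay, translation and microRNA processing had log2 fold changes from -0.035 to 0.12, 5 of 6 above 0 beside 50.7% of all genes. Dhx34, a factor of nonsense-mediated decay, had 27.9, 28.8, 26.8 and 26.0 CPM in the controls and 30.1, 28.0, 30.1 and 29.0 CPM in the Rbfox2-/- mice. It was above every control in 3 of 4 Rbfox2-/- mice, with a log2 fold change of 0.098 (SE 0.046, adjusted p = 0.394 by edgeR), and was 0.11 without M901 and M902. Dhx29 had 55.7, 48.8, 49.1 and 50.3 CPM against 54.8, 59.1, 56.6 and 51.0 CPM, a log2 fold change of 0.12 (SE 0.058, adjusted p = 0.405) that was 0.050 without M901 and M902. The control M833 was the highest of its group in Dhx29 and in Dhx8, Dhx16, Dhx37 and Ddx11. Ddx17 varied within both groups, with 867, 864, 847 and 755 CPM in the controls and 879, 819.8, 972 and 754 CPM in the Rbfox2-/- mice. Its log2 fold change was 0.039 (SE 0.077, adjusted p = 0.869), and -0.032 without M901 and M902. Ddx6 had 429.7, 379, 385 and 377 CPM against 380.2, 425, 399.7 and 404 CPM, with a log2 fold change of 0.034 (SE 0.052, adjusted p = 0.818), or -0.0045 without M901 and M902.

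Ddx1 had 184, 176, 184 and 180.1 CPM in the controls and 185, 196, 194 and 195 CPM in the Rbfox2-/- mice. The groups did not overlap, but the lowest Rbfox2-/- value, 184.56 CPM in M893, lay just above the highest control value of 184.25 CPM. The log2 fold change was 0.089 (SE 0.033), a difference of 6.39% with a 95% interval from 1.11% to 11.9%, and the adjusted p was 0.303 by edgeR. Without M901 and M902 it was 0.066 with an unadjusted p of 0.186. Non-overlapping groups were thus found in 1 member that was higher and 1 that was lower, where 3.64% of all genes were higher and 3.39% lower in this way. Ddx20, which binds the SMN complex that assembles small nuclear RNPs, differed by a log2 fold change of 0.029 (SE 0.055, adjusted p = 0.857), or -0.026 without M901 and M902.

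The 3 members linked to mRNA export, Ddx19a, Ddx19b and Ddx39, all had log2 fold changes above 0, as did 50.7% of all genes. Ddx19a, which acts at the nuclear pore, had 54.9, 50.8, 51.4 and 51.1 CPM in the controls and 54.3, 56.4, 56.0 and 52.7 CPM in the Rbfox2-/- mice. Its log2 fold change was 0.075 (SE 0.040, adjusted p = 0.443 by edgeR), and that of its neighbour and near-copy Ddx19b was 0.0060 (SE 0.055, adjusted p = 0.976). Without M901 and M902 these were 0.037 and -0.020. Dhx30, a helicase of mitochondrial RNA granules, had 124, 122, 120.5 and 118 CPM against 124, 128, 129.8 and 115 CPM, a log2 fold change of 0.036 (SE 0.041, adjusted p = 0.738) that was -0.021 without M901 and M902. Ddx28, the other mitochondrial member, had a log2 fold change of -0.024 (SE 0.075), or -0.094 without them.

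Ddx60, Ddx11 and Ddx26b had the largest fold changes of the family, and the first 2 of them were among its weakly expressed genes. Ddx60 had 3.42, 2.97, 6.03 and 3.48 CPM in the controls and 2.83, 1.48, 2.92 and 3.75 CPM in the Rbfox2-/- mice, a log2 fold change of -0.54 (SE 0.29, adjusted p = 0.448 by edgeR). The control M896 was highest and the Rbfox2-/- mouse M901 lowest, and the log2 fold change was -0.28 without M901 and M902 and -0.26 at the smallest when 1 mouse was left out. Ddx11 had 6.05, 4.21, 3.70 and 4.05 CPM against 5.15, 5.53, 6.55 and 5.08 CPM, a log2 fold change of 0.31 (SE 0.15, adjusted p = 0.418) that was 0.18 without M901 and M902. All 4 Rbfox2-/- mice lay above 3 of the controls, and M833 was above 3 of them. Without M833 the log2 fold change of Ddx11 was 0.48, with the lowest p of any member in that setting and an adjusted p of 0.106 by edgeR. Ddx26b had 32.4, 37.9, 35.4 and 30.5 CPM against 31.5, 29.4, 33.4 and 29.2 CPM, a log2 fold change of -0.14 (SE 0.072, adjusted p = 0.425). It lies on the X chromosome, and without M901 and M902, the mice with Xist, its log2 fold change was -0.17.

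Of the 3 genes known from germ cells, 1 had a log2 fold change above 0, where 50.7% of all genes did. Ddx25 had 26.0, 27.4, 29.2 and 27.6 CPM in the controls and 25.4, 26.7, 25.9 and 25.6 CPM in the Rbfox2-/- mice. In 3 of 4 Rbfox2-/- mice it was below every control, with a log2 fold change of -0.089 (SE 0.045, adjusted p = 0.421 by edgeR) and -0.11 without M901 and M902. Ddx4 and Ddx43 had log2 fold changes of -0.090 (SE 0.13) and 0.13 (SE 0.27), neither of which could be told from 0 with 4 mice per group. They ran from -0.17 to -0.013 and from 0.019 to 0.43 when 1 mouse was left out, and were -0.19 and 0.27 without M901 and M902. Dhx57, a helicase without a settled role that had the lowest p of the 4 unplaced members, had a log2 fold change of 0.034 (SE 0.054, adjusted p = 0.83), or 0.0081 without M901 and M902.

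The TGCATG sites printed above were set beside the fold changes as a description. Of the 15 members with TGCATG in the 3′ untranslated region, 9 had a log2 fold change above 0 and the median was 0.039, against 24 of 34 and 0.034 in the members without it. Of all genes with the site 46.3% were above 0, with a median of -0.0082. Of all genes without it 52.1% were above 0, with a median of 0.0047. Ddx1, with 3 sites, and Ddx25, with 4, had differences of opposite sign, and Ddx50 had none.

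Helicases of the same superfamily whose symbol does not begin with Ddx or Dhx were compared from a separate list. The translation factors Eif4a1 and Eif4a2 and the exon junction component Eif4a3, which are DEAD box proteins by sequence, had 30.4 ± 1.63, 71.9 ± 3.4995 and 42.7 ± 1.48 FPKM (SD, n = 4 control mice). Their log2 fold changes were 0.0021 (SE 0.052), -0.016 (SE 0.048) and 0.0091 (SE 0.034), with adjusted p of 0.992, 0.919 and 0.935 by edgeR. Without M901 and M902 they were -0.018, -0.075 and -0.013. Of the 20 tested genes of this list of other RNA helicases, 0 had an adjusted p under 0.05 by edgeR, 1 was higher (Aqr) and 2 were lower (Helz2 and Mov10) at an unadjusted p under 0.05, where 6.42% of all genes were higher and 6.87% lower, and the median log2 fold change was 0.0094. The count of 3 was 0 without M901 and M902 (3.55% of all genes higher, 2.46% lower) and 1 with the surrogate variable (3.91% and 2.65%). Without M909 it was 5 (8.56% and 9.2%). The lowest p was that of Helz2, an interferon-induced coactivator, at 3.64, 4.69, 5.32 and 4.22 CPM in the controls and 3.56, 3.004, 3.15 and 3.52 CPM in the Rbfox2-/- mice (log2 fold change -0.43, SE 0.12, adjusted p = 0.222). Every Rbfox2-/- mouse was below every control.

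Proteins listed as partners of the helicases also lacked a called member. Of 22 listed G-patch proteins, some of which activate DEAH box helicases, 0 had an adjusted p under 0.05 by edgeR. At an unadjusted p under 0.05, 1 was higher, beside 6.42% of all genes. The log2 fold change was above 0 in 17, where it was above 0 in 50.7% of all genes, and the median was 0.039. Without M901 and M902 it fell below 0 in Gpkow, Gpatch11, Rbm5, Sugp2, Tfip11 and Aggf1, and the other genes kept their sign. In either direction, the genes of this list at an unadjusted p under 0.05 numbered 6 without M909 (8.56% of all genes higher, 9.2% lower). They numbered 2 without M833 (8.1% and 9.46%). The number also moved without M893 or M894, where no share of all genes was taken. The gene over all 8 mice was Rbm6, a splicing regulator, with 79.9, 79.2, 71.5 and 69.7 CPM in the controls and 87.4, 90.2, 85.5 and 79.2 CPM in the Rbfox2-/- mice (log2 fold change 0.19, SE 0.056, adjusted p = 0.239). M909 lay within the range of the controls. Of 31 partners of DEAD box proteins, such as translation, exon junction and decapping factors, 0 had an adjusted p under 0.05 and 4 were higher at an unadjusted p under 0.05 (Dcp1b, Ctif, Thoc5 and Lsm14a), beside 6.42% of all genes, with a median log2 fold change of 0.017. In either direction, the count of 4 was 1 without M901 (4.7% of all genes higher, 4.54% lower). It was 1 without both M901 and M902 (3.55% and 2.46%) and 1 with the surrogate variable (3.91% and 2.65%). It was 2 without M896 (3.65% and 5.2%) or M902 (4.87% and 4.63%), and 6 without M833 (8.1% and 9.46%). The lowest p was that of Dcp1b, a decapping cofactor that acts with Ddx6, at 14.5, 14.9, 13.1 and 14.1 CPM against 16.1, 15.3, 16.7 and 16.3 CPM (log2 fold change 0.19, SE 0.055, adjusted p = 0.234 by edgeR). All 4 Rbfox2-/- mice were above all controls, whereas in Ddx6 itself the groups overlapped.

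Some members share exonic bases with a gene on the opposite strand, and whether the counting used strand is not given in the sources used here. The shared part was 29.8% of the exonic bases of Ddx49 (with Homer3), 17.4% of Ddx39 (with Adgre5) and of Ddx41, 15.9% of Ddx43 and 14.2% of Ddx54. The values of these 5 genes are therefore less certain, and none of them was among the 10 members with the lowest p.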

How the data were processed

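Retinal RNA of 4 control and 4 Rbfox2-/- mice was sequenced as poly(A) libraries. Paired reads were aligned by the authors to mm10 (GRCm38) with STAR, and HTSeq counted the fragments of each gene from reads that mapped uniquely. The deposited counts are not normalized, and the deposited FPKM are the authors' own. The methods name both a RefSeq and an Ensembl annotation, and the submitters' processing notes name CASAVA 1.8.2 and edgeR. No gene of the table fell short of 5 counts in 4 or more mice. The authors' fold changes, p-values and FDR, and 16 further per-sample columns, were not used.

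Groups were taken from the labels, which name each mouse. Nothing was pooled, and all pairs of libraries differed by more than sampling noise. After the filter filterByExpr and TMM normalization, the quasi-likelihood test of edgeR 4.0.16 (R 4.3.3) compared the groups over 16797 genes, with no covariate. Adjusted p-values follow Benjamini-Hochberg over all of them. The SE follows from the log2 fold change and the F statistic, and the 95% interval uses the degrees of freedom of that test. The procedure was tested on simulated data, with changes larger than the fold change of any member and without a second factor such as sex. That test does not show how well differences as small as those of most helicases are found. FPKM were described without a test. The smallest counts are 41 per mouse, so that the precision of nearly all members is limited by the 4 mice per group rather than by counting.

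The comparison was repeated with limma-voom (limma 3.58.1), DESeq2 1.42.0, the likelihood ratio test of edgeR, upper-quartile and RLE normalization, without the filter, with a minimum of 10 counts in each library, without each mouse, without both M901 and M902, and with 1 surrogate variable (sva 3.50.0).

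Members, roles, partner lists and alternatives were chosen with earlier results of these data known. Named are members with an adjusted p under 0.05, the 10 with the lowest p, the 5 with the largest fold change, the 5 highest and 3 lowest by control FPKM, the lowest p of each role, Rbfox2, the 3 Eif4a genes and the lowest p of each partner list. Further members named with a value (Ddx10, Ddx19b, Ddx20, Ddx21, Ddx24 and Ddx28, and those in the lists of settings and overlaps) and the further partner genes listed by name were chosen after their values were seen. Sequences come from GENCODE M21, to which all 49 members were matched by symbol or older symbol.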

Additional observations from a re-analysis of the deposited data

Results flagged for a closer look

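Among the 98 groups of 4 mice examined (49 members in control and in Rbfox2-/- retinas), 8 held a mouse whose gap to the nearest of the others exceeded Dixon's 95% critical value for 4 samples, taken as a share of the range of the group. Chance alone would give about 1 in 20, or 4.9 groups.

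The control M833 was the high mouse in 3 of the 8, with Ddx6 at 429.7 CPM where the other controls had 377 to 385 CPM, Ddx19a at 54.9 CPM where the others had 50.8 to 51.4 CPM, and Dhx40 at 25.7 CPM where the others had 23.9 to 24.1 CPM. In the Rbfox2-/- mouse M893, Ddx1 was low at 184.56 CPM beside 194 to 196 CPM, and Ddx42 was low at 125 CPM beside 128.6 to 128.9 CPM. In the Rbfox2-/- mouse M902, Dhx40 was high at 24.9 CPM beside 23.9 to 24.0 CPM. In the control M898, Ddx10 was low at 14.99 CPM beside 16.4 to 16.6 CPM, and in the control M896, Ddx60 was high at 6.03 CPM beside 2.97 to 3.48 CPM. Dhx40, Ddx42 and Ddx10 are named here only because of these values.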

How the results depend on the processing

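No paired analysis was possible because the labels name each mouse by its own number and the groups share none. No alternative called a member at an adjusted p under 0.05, by edgeR, DESeq2 or limma. For all genes, the 11 calls became 460 by DESeq2, 164 by the likelihood ratio test, 1 without M901 and M902 and 5 with 1 surrogate variable, and ran from 5 to 35 when 1 mouse was left out. Members higher at an unadjusted p under 0.05 (2) numbered 4 by DESeq2 (6.79% of all genes). They numbered 0 by the likelihood ratio test (4.48%) and 1 by limma-voom (6.08%). The number also fell with RLE size factors and with at least 10 counts in every sample, where no share of all genes was taken. Without M901 and M902 (3.55%) and with the surrogate variable (3.91%) there were 0, with 0 to 8 when 1 mouse was left out. Members lower (1) numbered 0 without M901 and M902 (2.46%) and 0 with the surrogate variable (2.65%), with 1 to 2 when 1 mouse was left out. The members' median log2 fold change of 0.034 was 0.0050 without M901 and M902 and -0.0030 with the surrogate variable, and ran from 0.013 to 0.064 when 1 mouse was left out. The number of members above 0 ran from 29 to 36 in those fits.

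Among the named members, the log2 fold change turned negative for Ddx17 (-0.0055 without M898, -0.029 without M902, -0.032 without M901 and M902, -0.051 with the surrogate variable, and up to 0.096 without M909), Ddx6 (-0.0045 without M901 and M902, -0.026 with the surrogate variable), Dhx30 (-0.021 and -0.026 in the same fits) and Dhx57 (-0.0053 with the surrogate variable). The cause of these shifts was not tested. In the other fits of the 20 named members no sign changed. The 4 mice per group, and not depth, limit these values.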
